A study of Homo sapiens with 12 samples.

Results

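The genes described here encode the linker histone H1-2, the core histones H2AC6 and H2AC18 (H2A), H2BC4, H2BC5, H2BC11, H2BC12 and H2BC21 (H2B), and H4C3 (H4). They were named as a set by symbol, with earlier results of these data known. Every probe carrying 1 of the 9 symbols was taken. This gave 13 probes among the 47321 of the array and 9 genes among the 20046 that it names. The cells were SH-SY5Y, a human neuroblastoma line that grows as neuron-like cells of sympathetic lineage. They were transfected with s18790 or s18789, siRNAs against the histone H3 lysine methyltransferase SETD1A, or with a control siRNA whose name the labels do not give, and all were harvested after 96 hours. Each of the 3 groups has 4 bead arrays of total RNA. Whether the 4 arrays of a group came from separately grown dishes is not stated, and the spread behind each p-value may be technical.

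Histones package DNA: H2A, H2B, H3 and H4 form the spool of the nucleosome, and H1 sits where the DNA enters and leaves it. Most of the genes lie in clusters, are transcribed in S phase under the coactivator NPAT, and make mRNAs that end in a stem loop bound by SLBP instead of a poly(A) tail. Some of these genes also make polyadenylated transcripts, which are known from differentiated and non-dividing cells. The labelling kit primes from poly(A) tails, so transcripts without a tail are copied poorly, and which form each probe read was not tested. Many histone genes are near-identical in sequence. The probe sequences were not used here, so whether a probe separates a gene from its closest copies was not tested.

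Promoter sequence was taken from RefSeq on GRCh38.p14 for 8 of the 9 genes, all but H4C3, as the 150 bases before the transcription start. The sequences shown are those of the H2B genes, which gave both the largest responses and the probes at the edge of detection, and of H2AC6, which shares its promoter region with H2BC4. Capitals mark matches, on either strand, to 4 motifs. They are the octamer ATTTGCAT, an element of H2B genes that is read by POU factors, the CCAAT box, the TATA box with the letters TATAAA, and the H1 box with the letters AAACACA. On the opposite strand the octamer reads ATGCAAAT. A CCAAT box there reads ATTGG. The regions are chr6:27146859-27147008 on the minus strand for H2BC12, chr6:27132796-27132945 on the minus strand for H2BC11, chr1:149886683-149886832 on the minus strand for H2BC21, chr6:26157971-26158120 on the plus strand for H2BC5, chr6:26123927-26124076 on the minus strand for H2BC4 and chr6:26124022-26124171 on the plus strand for H2AC6.
H2BC12: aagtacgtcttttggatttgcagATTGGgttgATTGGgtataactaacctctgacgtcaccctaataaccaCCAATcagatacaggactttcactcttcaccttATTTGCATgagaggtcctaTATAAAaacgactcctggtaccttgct
H2BC11: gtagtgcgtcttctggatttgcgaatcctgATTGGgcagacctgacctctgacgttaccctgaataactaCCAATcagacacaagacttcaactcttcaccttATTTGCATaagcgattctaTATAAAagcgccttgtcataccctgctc
H2BC21: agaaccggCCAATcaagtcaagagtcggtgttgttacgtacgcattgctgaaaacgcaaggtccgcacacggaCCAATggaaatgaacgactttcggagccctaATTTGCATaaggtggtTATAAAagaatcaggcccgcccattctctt
H2BC5: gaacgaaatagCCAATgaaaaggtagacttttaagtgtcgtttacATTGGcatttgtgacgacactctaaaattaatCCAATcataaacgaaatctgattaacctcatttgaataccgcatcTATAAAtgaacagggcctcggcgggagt
H2BC4: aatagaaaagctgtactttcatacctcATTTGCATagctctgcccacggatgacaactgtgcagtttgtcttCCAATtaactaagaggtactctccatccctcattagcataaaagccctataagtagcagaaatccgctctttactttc
H2AC6: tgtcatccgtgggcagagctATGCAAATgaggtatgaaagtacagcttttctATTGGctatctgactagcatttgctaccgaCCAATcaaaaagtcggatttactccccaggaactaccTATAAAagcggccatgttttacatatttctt

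The octamer was found in 5 of the 8 promoters, those of H2AC6, H2BC4, H2BC11, H2BC12 and H2BC21, in 15 of 56 other histone promoters and in 0.985% of 27305 promoters of the same length. Most of the 8 are H2B genes while the 56 mix histone classes, and no share was taken within H2B genes alone. In H2BC12 and H2BC21 the octamer lay at -46 to -39 from the start, and in H2BC11 at -47 to -40. H2BC5 held no octamer in this window but 3 CCAAT matches and a TATA box. CCAAT was present in 8 of 8 promoters, 46 of 56 other histone promoters and 24.4% of all promoters, and TATAAA in 6 of 8 (all but H1-2 and H2BC4), 29 of 56 and 7.05%. The H1 box was found in H1-2 at -119 to -113, in 4 of 56 other histone promoters and in 2.77% of all promoters. H2BC11 and H2BC12 were the most alike pair of upstream sequences, with 120 of 153 aligned columns identical (78.4%), and the next pair, H2AC6 and H2AC18, reached 57.9%. H2AC6 and H2BC4 are transcribed away from each other, and both sequences above contain the same octamer at chr6:26124042-26124049. These matches are letters in a window and say nothing of binding.

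Values are background-corrected, quantile-normalized log2 intensities, given for replicates 1 to 4 of each group in order. A probe was detected on an array where its detection p was under 0.01, and tested where it was detected on at least 4 of the 12 arrays. Of the 13 histone probes 10 passed, for 7 genes, and these 10 were detected on all 12 arrays. A difference is called where limma's Benjamini-Hochberg adjusted p over all 15922 tested probes was under 0.05, and errors of differences are standard errors (SE) of that model.

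Across arrays, the median intensity was 63.1 to 70.2 and 29.1% to 33.6% of probes were detected. Two-sided exact permutation tests of SETD1A gave p = 0.0286 for each siRNA, the smallest that 4 against 4 arrays allow. SETD1A averaged 7.04 ± 0.28 with s18790 and 7.24 ± 0.11 with s18789, against 7.67 ± 0.25 in control cells (SD, n = 4 each). The limma difference from control was -0.63 for s18790 (adjusted p = 0.0276) and -0.43 for s18789 (adjusted p = 0.616). Directly compared, s18790 minus s18789 was -0.197 ± 0.155 for SETD1A (adjusted p = 0.468), and the arrays overlapped. A stronger lowering of SETD1A by s18790 was therefore not shown. The s18790 call of SETD1A was lost under 7 of 23 other ways of processing, with a highest adjusted p of 0.0999. Of 10 adrenergic neuroblastoma markers 9 had a probe and all 9 were detected on 12 arrays, while the markers of blood and glia, KRT5 and CDH1 were detected on 0 arrays, and EPCAM on 9. Of 7 mesenchymal markers VIM (mean 12.4), COL3A1 (8.17), SNAI2 (7.13) and COL1A1 (6.23) were detected on 12 arrays and YAP1 on 9, and PRRX1 and FN1 on 0. The first principal component, with 60.6% of the variance, placed s18790 replicate 2 (83.7) and control replicate 4 (26.8) away from the rest of their groups. Relative to the other arrays of its group, the median of the 10 histone probes was 0.42 higher on s18790 replicate 2 and 0.23 higher on control replicate 4, against 0.17 and 0.07 over all probes.

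Most of these histone genes were higher after s18790 than after the control siRNA. The difference was called for 9 of the 10 tested probes and 6 of 7 genes, H1-2, H2AC6, H2AC18, H2BC5, H2BC12 and H2BC21, by 1.54- to 2.1-fold. H4C3 was the exception, and 0 probes were lower. Over all tested probes, 8.32% were called and 4.03% called higher, and with 1 probe a gene 5.06% of 9833 genes were called higher. The set was chosen with earlier results of these data known, so these shares describe it and do not test it. The 4 s18790 arrays lay above all 4 control arrays for 8 of the 10 probes, against 6.95% of all probes. The median log2 difference was 0.78 over the 10 probes and 0.01 over all probes, and with 1 probe a gene 0.71 over 7 genes. Without s18790 replicate 2 the count was again 9 and the median 0.63, while 11.3% of all probes were called. The count was 5 without control replicate 1, 4 without control replicate 2 and 5 without control replicate 3. In a bulk sample, a change in the share of cells making a transcript and a change in transcript per cell cannot be told apart.

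**Figure D1:**
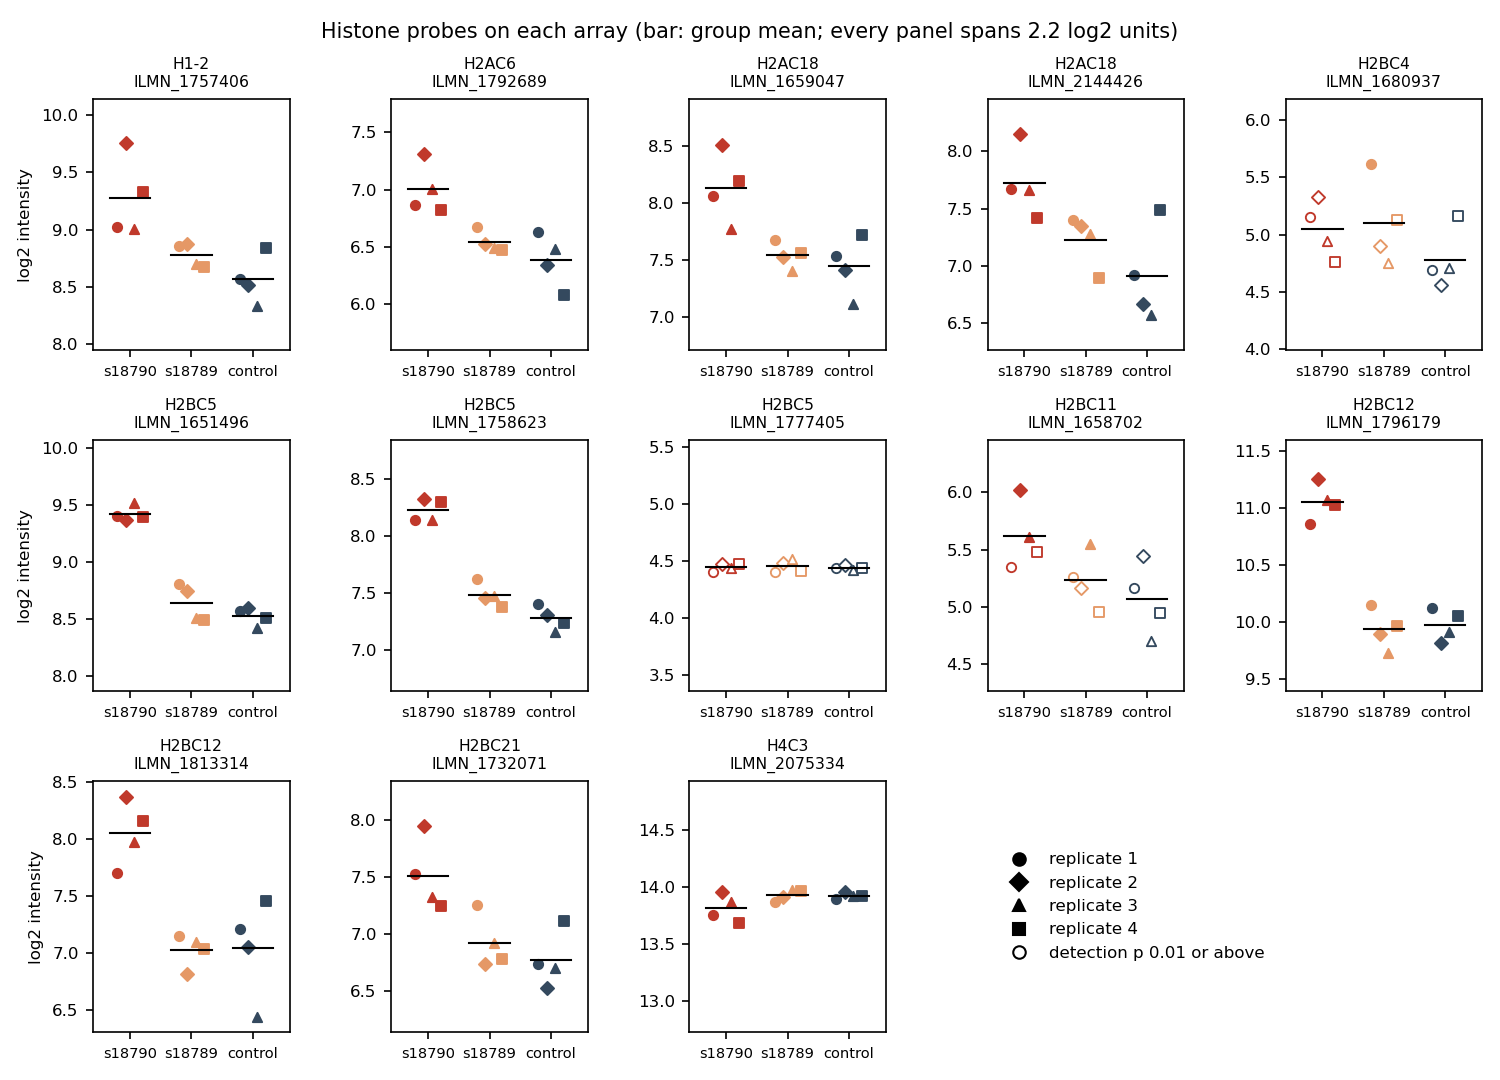
Log2 intensity of the 13 histone probes on each of the 12 arrays, by siRNA group (s18790, s18789, control), with a bar at the group mean and open symbols where the probe was not detected. The 4 s18790 arrays stand above the others for both H2BC12 probes and the 2 detected H2BC5 probes, while H4C3 lies between 13.68 and 13.97 on all arrays.

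H2BC12 had the largest differences of the set, and H2B is the core histone that carries the ubiquitin mark that precedes H3 lysine 4 methylation. Its brighter probe, ILMN_1796179, read 10.86, 11.25, 11.07 and 11.03 with s18790, 10.15, 9.90, 9.73 and 9.96 with s18789, and 10.12, 9.82, 9.91 and 10.06 in control cells. All 4 s18790 arrays lay above every other array, and the s18789 and control arrays were interleaved. The difference between s18790 and control was 1.07 ± 0.12 (2.1-fold, adjusted p = 0.00037), and 1.01 without s18790 replicate 2 (adjusted p = 0.000277). The other H2BC12 probe, ILMN_1813314, read 7.70, 8.37, 7.98 and 8.16 with s18790, 7.15, 6.82, 7.10 and 7.04 with s18789, and 7.21, 7.06, 6.44 and 7.46 in control cells. Here too the s18790 arrays did not overlap the other 8, although control replicate 3 was low within its group. That probe gave 1.01 ± 0.20 (2.01-fold, adjusted p = 0.00984), and 0.90 without s18790 replicate 2 (adjusted p = 0.0126).

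H2BC5, also an H2B gene, rose with the smallest spread between arrays. Its probe ILMN_1651496 read 9.40, 9.37, 9.52 and 9.39 with s18790, 8.81, 8.74, 8.52 and 8.49 with s18789, and 8.57, 8.60, 8.42 and 8.51 in control cells. The lowest s18790 array was above the highest of all others, and s18790 replicate 2, high for most of the other histone probes, was the lowest of its group here. The difference between s18790 and control was 0.89 ± 0.10 (1.86-fold, adjusted p = 0.00037), and 0.91 without that array (adjusted p = 0.000238). Its probe ILMN_1758623 read 8.14, 8.32, 8.14 and 8.30 with s18790, 7.63, 7.45, 7.48 and 7.38 with s18789, and 7.41, 7.31, 7.15 and 7.24 in control cells. The s18790 arrays again stood clear of the others, by 0.95 ± 0.10 against control (1.93-fold, adjusted p = 0.000262), and by 0.91 without s18790 replicate 2 (adjusted p = 0.000172). The third H2BC5 probe, ILMN_1777405, which is annotated to a different RefSeq transcript, was detected on 0 of 12 arrays. Its level was 4.40 to 4.47 with s18790, 4.41 to 4.51 with s18789 and 4.42 to 4.46 in control cells, with detection p between 0.523 and 0.842 over all arrays. The 2 detected H2BC5 probes thus gave similar differences, and the third gave none that could be read.

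H2BC21, an H2B gene of the chromosome 1 cluster, read 7.52, 7.95, 7.33 and 7.24 with s18790, 7.25, 6.74, 6.92 and 6.79 with s18789, and 6.74, 6.53, 6.70 and 7.11 in control cells. The s18790 arrays lay above all control arrays, and the highest s18789 array, replicate 1, fell just within the s18790 range. The difference between s18790 and control was 0.74 ± 0.18 (1.67-fold, adjusted p = 0.0243), and 0.59 without s18790 replicate 2 (adjusted p = 0.027). The call was lost without s18790 replicate 1 (adjusted p = 0.0633), without control replicate 1 (0.0718), without control replicate 2 (0.0825) and without control replicate 3 (0.0716), and with the replicate number as a block (0.0596).

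H2BC4 and H2BC11 were mostly below detection and were not tested. H2BC11 was detected on s18790 replicates 2 and 3 and s18789 replicate 3, and on 0 of the 4 control arrays. It read 5.34, 6.02, 5.61 and 5.48 with s18790, 5.26, 5.17, 5.55 and 4.95 with s18789, and 5.17, 5.45, 4.70 and 4.95 in control cells, with overlap between all groups. H2BC4 was detected on s18789 replicate 1 alone. It read 5.15, 5.33, 4.94 and 4.76 with s18790, 5.61, 4.90, 4.75 and 5.13 with s18789, and 4.69, 4.56, 4.71 and 5.16 in control cells. No order of the groups can be read from either probe at this signal, including H2BC11, whose upstream sequence is the one most like that of H2BC12.

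The linker histone gene H1-2, whose protein binds linker DNA and compacts chromatin, read 9.02, 9.76, 9.0 and 9.33 with s18790, 8.85, 8.87, 8.70 and 8.68 with s18789, and 8.57, 8.51, 8.33 and 8.84 in control cells. The s18790 arrays were above all others, with replicate 2 the highest, and the s18789 and control arrays overlapped. H1-2 rose by 0.71 ± 0.165 with s18790 against control (1.64-fold, adjusted p = 0.0207), and by 0.56 without s18790 replicate 2 (adjusted p = 0.0164). The adjusted p was 0.0587 without control replicate 1, 0.0636 without control replicate 2 and 0.0714 without control replicate 3, which ends the call.

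Both H2A genes were higher with s18790. H2AC6, whose product is a canonical H2A, read 6.87, 7.31, 7.01 and 6.82 with s18790, 6.67, 6.52, 6.49 and 6.47 with s18789, and 6.63, 6.34, 6.48 and 6.08 in control cells. The s18790 arrays were above the other 8, and control replicate 4, high for most of the set, was the lowest array for H2AC6. The difference between s18790 and control was 0.62 ± 0.14 (1.54-fold, adjusted p = 0.0179), and 0.52 without s18790 replicate 2 (adjusted p = 0.0199). The call was lost without control replicate 2 (adjusted p = 0.0576). Its divergent neighbour H2BC4 was below detection on 11 of the 12 arrays.

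H2AC18, an H2A gene with a near-identical copy, H2AC19, in the chromosome 1 cluster, has 2 probes. ILMN_1659047 read 8.06, 8.51, 7.78 and 8.20 with s18790, 7.68, 7.53, 7.41 and 7.57 with s18789, and 7.54, 7.41, 7.12 and 7.72 in control cells. The lowest s18790 array, replicate 3, stood just above the highest control array, replicate 4. That probe rose by 0.69 ± 0.16 with s18790 against control (1.61-fold, adjusted p = 0.0218), and by 0.56 without s18790 replicate 2 (adjusted p = 0.0253). Its call ended without control replicate 1 (adjusted p = 0.0514), control replicate 2 (0.0648) or control replicate 3 (0.0724). ILMN_2144426 read 7.67, 8.15, 7.66 and 7.42 with s18790, 7.40, 7.35, 7.27 and 6.89 with s18789, and 6.92, 6.67, 6.57 and 7.49 in control cells. Here control replicate 4 lay above the lowest s18790 array, so the groups overlapped. The difference was 0.82 ± 0.21 (1.76-fold, adjusted p = 0.0324), and 0.68 without s18790 replicate 2 (adjusted p = 0.0453). This call ended without s18790 replicate 1 (adjusted p = 0.0715), control replicate 1 (0.0853), control replicate 2 (0.102) or control replicate 3 (0.104), and with the replicate number as a block.

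H4C3, the only H4 gene of the set, did not follow the others. It read 13.75, 13.96, 13.87 and 13.68 with s18790, 13.87, 13.91, 13.97 and 13.97 with s18789, and 13.90, 13.96, 13.92 and 13.93 in control cells. Replicates 4 and 1 of s18790 were the lowest of the 12 arrays, and the groups overlapped. The difference between s18790 and control was -0.11 ± 0.09 (95% interval -0.31 to 0.09, adjusted p = 0.483), and the upper end of that interval lay below the smallest called difference of the set, the 0.62 of H2AC6. The deposited intensities of H4C3 were 11436 to 17092, and how linear the bead signal is in that range was not tested.

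**Figure D2:**
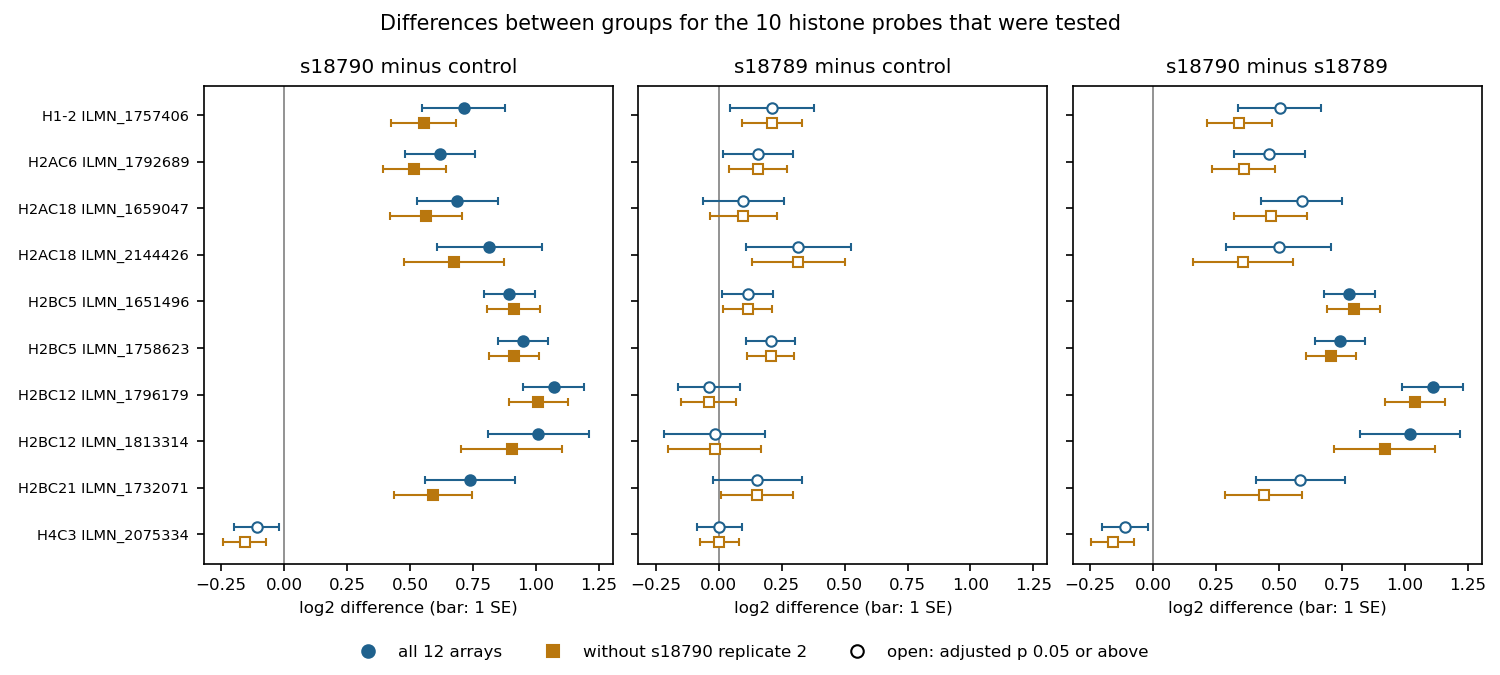
Log2 difference with its SE for the 10 tested histone probes in each of the 3 comparisons, with all 12 arrays (circles) and without s18790 replicate 2 (squares); filled symbols have an adjusted p under 0.05. Both H2BC5 and both H2BC12 probes are filled for s18790 against control and against s18789, and all symbols are open for s18789 against control.

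With s18789 the same genes showed no called difference from control. By limma 0 of 10 probes were called, 0 had an unadjusted p under 0.05, and 0 were higher without overlap, against 0.0942% of all probes called, 6.02% with an unadjusted p under 0.05 and 2.86% higher without overlap. With 1 probe a gene, 0.102% of all genes were called. The differences ran from -0.04 to 0.32, 8 of 10 were positive, and their median was 0.13, against 0.01 over all probes. The largest was that of H2AC18 ILMN_2144426, 0.32 (95% interval -0.14 to 0.77), and the lowest unadjusted p that of H2BC5 ILMN_1758623, 0.0587 for a difference of 0.21 (-0.01 to 0.42, adjusted p = 0.852). For H2BC12 the intervals were -0.30 to 0.23 and -0.45 to 0.42. For every probe called with s18790, the upper end of the s18789 interval lay below the s18790 difference. The margin was smallest for H2AC18 ILMN_2144426, with 0.77 against 0.82. The s18790 differences carry errors of their own. H1-2 differed by 0.21 (-0.15 to 0.57), H2AC6 by 0.16 (-0.15 to 0.46), H2BC21 by 0.15 (-0.23 to 0.54) and H4C3 by 0.00331 (-0.19 to 0.20). A missed threshold does not show that these genes were alike in the groups.

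The siRNAs were also compared directly. Of the 10 probes 4 were higher with s18790 than with s18789, both of H2BC5 and both of H2BC12, against 4.2% of all probes called and 2.34% called higher. With 1 probe a gene, 5.07% of all genes were called. H2BC12 differed by 1.11 ± 0.12 (adjusted p = 0.000863) and 1.02 ± 0.20 (adjusted p = 0.016), and H2BC5 by 0.78 ± 0.10 (adjusted p = 0.00207) and 0.74 ± 0.10 (adjusted p = 0.00238). The second H2BC12 probe lost its call without s18789 replicate 2 (adjusted p = 0.0557) and without s18789 replicate 4 (0.053). The s18790 arrays lay above all s18789 arrays for 8 of 10 probes, all but H2BC21 and H4C3, against 7.88% of all probes. The differences that missed the threshold were 0.50 for H1-2 (adjusted p = 0.104), 0.46 for H2AC6 (0.0784), 0.59 and 0.50 for H2AC18 (0.0579 and 0.191), 0.58 for H2BC21 (0.0796) and -0.11 for H4C3 (0.478). The count of 4 was the same without s18790 replicate 2. Thus for H2BC5 and H2BC12 s18790 was called above both s18789 and control, and for H1-2, H2AC6, H2AC18 and H2BC21 above control alone. This division follows which comparisons with s18789 met the threshold. The s18789 mean lay between the others for all of these genes but H2BC12, where it was close to control. It had no called difference from control for any of them. Since s18790 and s18789 are set against the same 4 control arrays, their differences from control are not independent.

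The 9 probes other than H4C3 moved together over the arrays. The correlation of each with the mean of the other histone probes was 0.825 to 0.95 over 12 arrays and 0.71 to 0.955 over the 11 without s18790 replicate 2. After removing the group means it was 0.642 to 0.857 for all but H2AC6 (0.241) and H2BC5 ILMN_1651496 (0.171). For H4C3 it was -0.487, -0.832 and 0.271 on these 3 bases. The points are arrays in 3 groups and share their normalization, so these values are descriptions. Averaged over the 10 probes, each centred on its own mean, the arrays lay at 0.33 to 0.73 with s18790, -0.25 to -0.02 with s18789 and -0.46 to -0.13 in control cells, and within each group the highest was s18790 replicate 2, s18789 replicate 1 and control replicate 4.

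**Figure D3:**
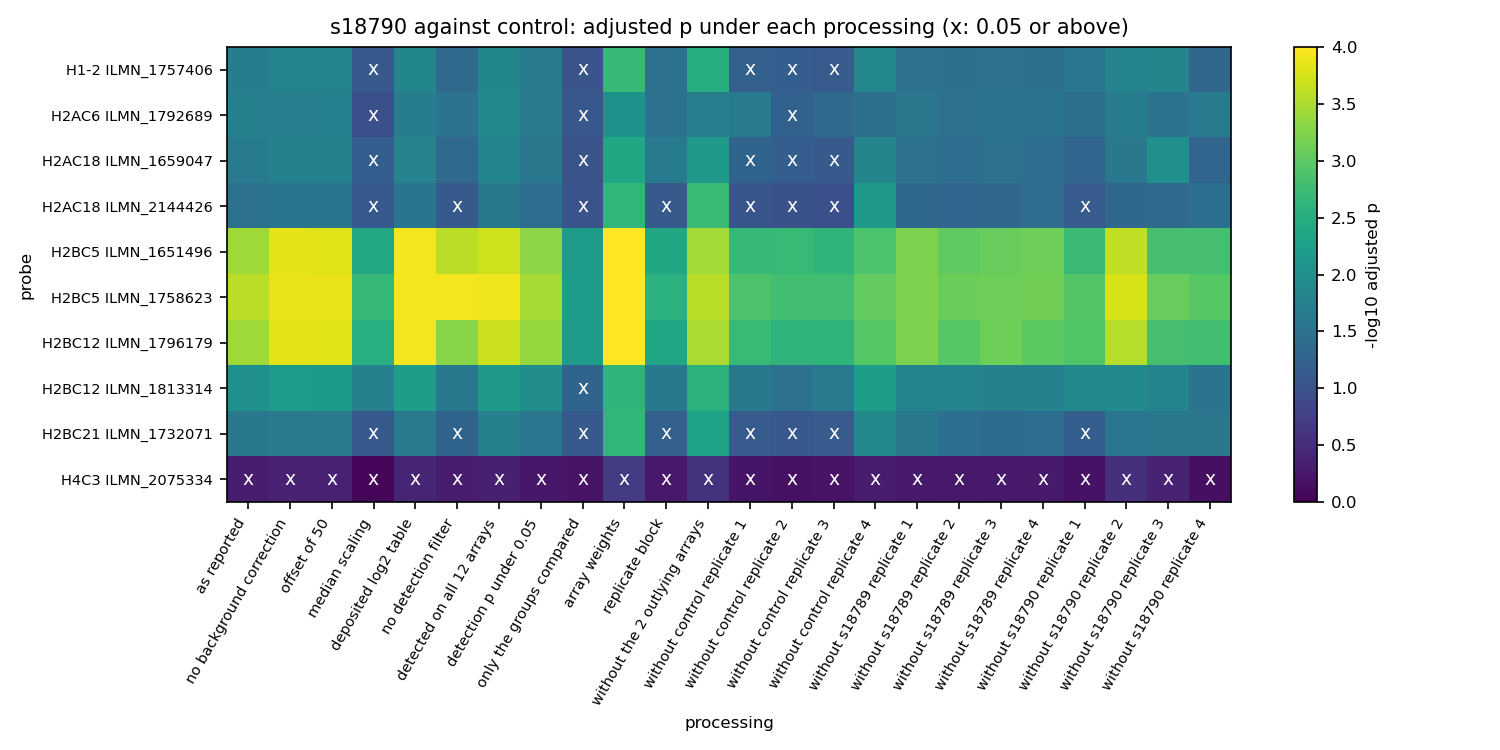
Negative log10 of the adjusted p for s18790 against control for each tested histone probe (rows) as reported and under 23 other ways of processing (columns), with a cross where it was 0.05 or above. The 2 H2BC5 rows and the row of H2BC12 ILMN_1796179 have no cross, and the H4C3 row is crossed throughout.

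Of 60 other replication-dependent histone genes on the array 12 were tested, and 1 was called higher with s18790 against control, 0 lower, with a median difference of 0.21, against 0.02 over all 9833 genes. Over all genes 5.06% were called higher and 4.79% lower, and these shares stand beside each list below. The histone gene called was H2AC19 at 0.64 ± 0.17 (adjusted p = 0.0384), the near-identical copy of H2AC18. Whether the probes of these copies read separate signals was not tested. H2AC19 lost its call under 12 of 23 other ways of processing. H2BC9 (0.58, adjusted p = 0.0713) and H2BC18 (0.43, adjusted p = 0.134), both H2B genes, were not called. H2BC18 was detected on 4 s18790, 2 s18789 and 1 control array, so its difference is limited by signal over background. H2BC8 was detected on 2 s18790, 2 s18789 and 0 control arrays, so no order of its groups can be read. H2BC9 was called under 3 of 23 other ways of processing, among them without control replicate 4 (adjusted p = 0.0324). On s18790 replicate 2, 12 of 12 of these genes were above the rest of their group, by a median of 0.63. Their median difference was 0.14 without that array.

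Genes listed as replication-independent histones, many of which are expressed through the cell cycle, gave 0 called of 11 tested with a median of 0.13. The H2A variant H2AJ, at 0.58 (adjusted p = 0.1), the linker histone H1-10, at 0.41 (0.196), H3-3B, which encodes H3.3, at 0.26 (0.254), and the DNA damage variant H2AX, at 0.26 (0.234), were not called. Without s18790 replicate 2 the count was 1 higher, H3-3B, at 0.41 (adjusted p = 0.0149), and H2AJ was called with array weights (0.0344). The factors of histone mRNA transcription and 3′ end processing gave 0 higher and 3 lower of 24, with a median of -0.07, against 4.79% of all genes called lower. Without s18790 replicate 2, 5 were lower. CPSF2, CSTF2T and CPSF3 fell, by 0.79 ± 0.20 (adjusted p = 0.0297), 0.77 ± 0.18 (0.0251) and 0.73 ± 0.18 (0.0297) on the log2 scale. CPSF2 and CSTF2T were each detected on 3 of 4 s18790 arrays. CPSF3 is the nuclease that cuts histone and polyadenylated pre-mRNAs, CPSF2 its partner, and CSTF2T a cleavage stimulation factor. The calls of CPSF2, CSTF2T and CPSF3 were lost under 5, 5 and 7 of the other ways of processing. SLBP stood at 0.10 (adjusted p = 0.679) and NPAT, detected on 5 arrays, at -0.08 (0.905). The exonuclease ERI1, which trims histone mRNA ends, was at -0.84 (0.0585), and TUT1, a nucleotidyltransferase, at -0.47 (0.0734). ERI1 was called under 9 of 23 other ways of processing, with adjusted p as low as 0.00291, and TUT1 under 4, and both were among the genes called lower without s18790 replicate 2. CPSF2 and CPSF3 were also the 2 called, both lower, of 19 polyadenylation genes, whose median was -0.14. WDR33 stood at -0.37 (0.0501, and called under 6 of 23 other ways of processing). CPSF6, detected on 2 of 4 s18790 arrays, stood at -0.49 (0.262).

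Of 23 histone chaperone genes 0 were called, with a median of 0.09, and 14 differences were positive. Among the 23 were CHAF1A (0.28, adjusted p = 0.382), ASF1B (0.30, 0.286) and the importin IPO4 (0.30, 0.135). IPO4 was called without s18790 replicate 3 (0.0409). Larger differences in the list were negative, such as SET at -0.52 (0.0531) and ASF1A at -0.47 (0.333), both named after their values were seen. Without s18790 replicate 2, 1 of the 23 was called lower. In the G1/S and DNA replication list of 38 genes, 5 were called higher and 2 lower, with a median of 0.10. The shares over all genes were 5.06% higher and 4.79% lower. Thymidine kinase TK1 rose by 0.58 ± 0.135 (adjusted p = 0.0203), and the GINS subunits GINS2 and GINS3 by 0.48 ± 0.12 (0.0297) and 0.42 ± 0.10 (0.0234). The primase subunit PRIM2, detected on 2 of 4 s18790 arrays, stood at -0.53 (0.169). The calls of TK1, GINS2 and GINS3 were lost under 5, 6 and 6 of 23 other ways of processing, with adjusted p up to 0.127, 0.193 and 0.228, and each was lost without control replicate 1, 2 or 3. The other called genes, named after their values were seen, were the ligase LIG1 (0.43, 0.0305) and the phosphatase CDC25A (0.41, 0.0267), which were higher, and the primase PRIM1 (-0.64, 0.0498) and the clamp loader RFC5 (-0.58, 0.00655), which were lower. Of 30 G2/M genes 0 were called, with a median of -0.20, and HMMR was at -1.52 ± 0.53 (adjusted p = 0.0973), CDKN3 at -0.54 (0.0778), FOXM1 at 0.42 (0.159) and CDCA8 at 0.18 (0.438). HMMR was detected on 3 of 4 s18790 arrays. HMMR and CDKN3 were called under 4 other ways of processing each, and FOXM1 under 1. Leaving out control replicate 4 gave HMMR an adjusted p of 0.0334 and CDKN3 one of 0.0462, and leaving out s18790 replicate 3 gave 0.0498 and 0.0348. On s18790 replicate 2 the G2/M genes had a median of -0.77 against the rest of their group. Without that array their median difference from control was -0.08. Their part in the histone differences was not tested.

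With s18789 0 genes were called against control in each of the 7 lists. Their medians lay between -0.01 and 0.13, against 0.01 over all genes. Among the G1/S genes called higher with s18790, TK1, GINS2, GINS3 and LIG1 were also above control with s18789 without overlap. Their uncalled differences were 0.34, 0.37, 0.35 and 0.18, and CDC25A, at 0.19, overlapped. Over all probes, 2.86% were higher without overlap. These G1/S genes were picked for a call against the same control arrays, so that share is not a fair comparison for them. In the rest of the G1/S list only RRM2, named after its values were seen, was above control with s18789 without overlap. Its difference was 0.31, uncalled. GINS2 and GINS3 differed between the siRNAs by 0.11 and 0.07, also uncalled. H2BC9 stood at 0.48 with s18789 and was called with array weights (adjusted p = 0.035). Between the siRNAs, RFC5, MCM10 and TYMS of the G1/S list were lower with s18790 than with s18789. Their differences were -0.72, -0.59 and -0.46 (adjusted p = 0.00336, 0.049 and 0.0485), and they were named after their values were seen. In the other 6 lists 0 genes were called, while over all genes 2.06% were called lower and 3.01% higher. Without s18790 replicate 2, 1 chaperone gene and 1 G2/M gene were lower.

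**Figure D4:**
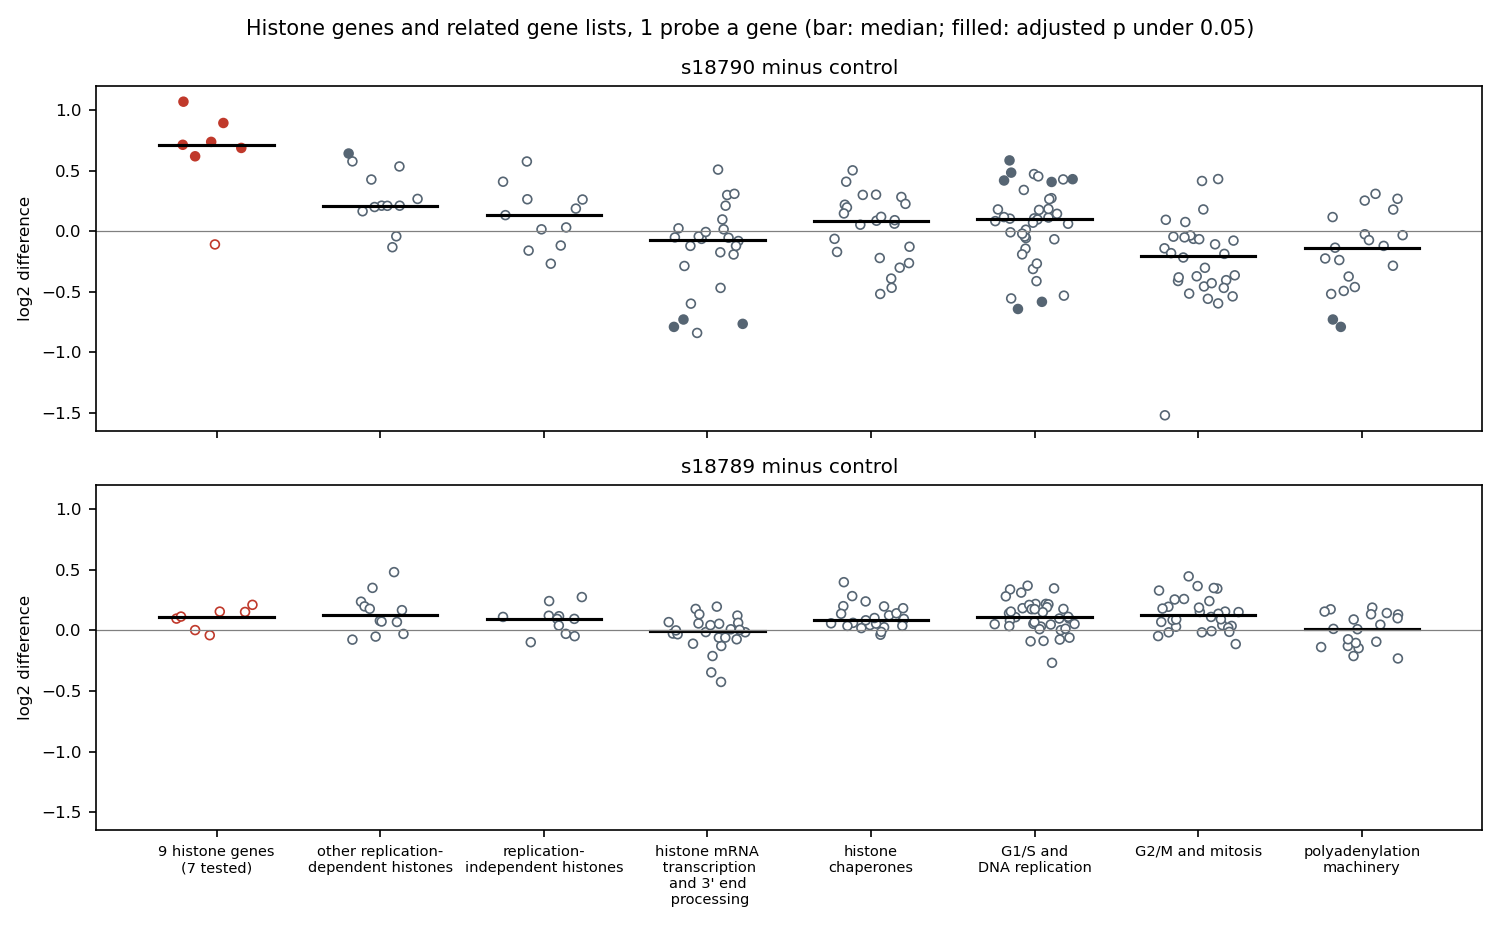
Log2 difference from control of each tested gene, 1 probe a gene, for s18790 (upper panel) and s18789 (lower panel), with a bar at each list's median and filled symbols where the adjusted p was under 0.05. For s18790 the 7 tested histone genes have a median of 0.71, and the 7 other lists have medians between -0.20 and 0.21. The histone genes and the lists were chosen with earlier results of these data known.

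The genes whose levels followed the mean of the 10 histone probes most closely over the 12 arrays were sought among 9803 named genes outside the histone lists. They were TRIM8 (r = 0.975), SPNS1 (0.974), TTC9B (0.972), LCMT1 (0.972), MAGEA10 (0.97) and TBCB (0.967). Over the 11 arrays without s18790 replicate 2 these values were 0.959, 0.957, 0.954, 0.954, 0.978 and 0.952, and after removing the group means 0.81, 0.867, 0.822, 0.911, 0.807 and 0.768. The genes with the lowest r were ANTXR1 (-0.975), CHGB (-0.972) and CLIC4 (-0.969), at -0.959, -0.958 and -0.948 without that array and -0.836, -0.799 and -0.882 within groups. Of these 9, TTC9B was detected on 4 s18790, 0 s18789 and 0 control arrays, and the others on all 12. The values describe these arrays, which fall into 3 groups, and the genes were picked for them.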

How the data were processed

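The authors deposited mean bead intensities on a linear scale, neither background-subtracted nor normalized, exported from GenomeStudio according to the submitters' processing notes, and beside each a detection p-value, per the file headers. They also deposited log2 values of the same arrays, used here only as an alternative. Aligner and genome build are not given in the sources used here, nor the chip of each array. A probe table gave 30113 probes 1 symbol and 8 several, with 17200 unnamed; of 30074 symbols checked against RefSeq 0 changed.

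In R 4.3.3 with limma 3.58.1, background was corrected by the normal-exponential model through the detection p-values, with an offset of 16, then quantile normalization and log2. Probes detected (p under 0.01) on at least 4 of 12 arrays were kept. A model with a mean per group over all 12 arrays (9 residual degrees of freedom) gave the 3 contrasts, with Benjamini-Hochberg adjustment over 15922 probes. Members were tested probe by probe, lists with the probe of highest mean per gene. Fold bounds set the brighter group's mean against the lowest detected level on each array of a group with no detection. The number of arrays limits the precision. The procedure was tested on simulated data.

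Named were all probes of the 9 genes, SETD1A, SLBP, NPAT, the 4 genes of each list whose difference averaged over the siRNAs was largest, and the 6 most and 3 least alike genes; others are said to be named after their values were seen. TONSL, which this rule names, was detected on 0 control arrays and is given no value. Members and lists were chosen with earlier results of these data known. There were 23 alternatives: background correction, offset, normalization, source of the values, detection filter, arrays in the fit, array weights, replicate number as a block, and arrays left out.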

Additional observations from a re-analysis of the deposited data

Results flagged for a closer look

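Arrays were marked by a ratio rule, which sets an array's gap to the nearest array of its group against the group's range. It marked none for the 10 tested histone probes. The rule can miss an array where the rest of its group is also spread, so this does not show that the groups were tight. Against the other arrays of its group, H2BC12 ILMN_1813314 deviated by -0.798 on control replicate 3. H2AC18 ILMN_2144426 deviated by 0.772 on control replicate 4, and H1-2 by 0.637 on s18790 replicate 2. Among the other named genes, an array stood apart for H2BC18 (4.90, low, on control replicate 4), H3-3B (9.99, low, on s18790 replicate 2), CSTF2T (6.32, low, on control replicate 4), IPO4 (7.80, low, on s18789 replicate 3), GINS3 (8.61, high, on s18790 replicate 2), PRIM2 (6.56, high, on s18789 replicate 1), TK1 (9.60, high, on s18790 replicate 2) and HMMR (7.30, low, on control replicate 4), all log2 intensities. Chance alone marks about 1 in 20 groups of 4 in this way.

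The siRNAs against SETD1A differed in limma's direct comparison for H2BC5, by 0.78 and 0.74 on the log2 scale for its 2 probes, and for H2BC12, by 1.11 and 1.02. They also differed for genes chosen for their likeness to the histone probes: TRIM8 by 0.57, SPNS1 by 0.44, MAGEA10 by 0.80, TBCB by 0.57, ANTXR1 by -0.79, CHGB by -0.52 and CLIC4 by -1.29. TTC9B, with a fitted difference of 1.32, was detected on no s18789 array, and its level was at least 1.92-fold higher with s18790. These differences are s18790 minus s18789, and the likeness that chose the genes used the same arrays.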

How the results depend on the processing

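Of 23 alternatives, the comparison of s18790 with control kept its call throughout for H2BC5 (both probes) and H2BC12 ILMN_1796179. The other calls were lost under 1 (H2BC12 ILMN_1813314), 3 (H2AC6), 5 (H1-2 and H2AC18 ILMN_1659047) or 8 (H2AC18 ILMN_2144426 and H2BC21) of them, and in no case did the direction change. The 9 called probes became 4 with median scaling, 3 with only the groups compared and 4 to 9 with 1 array left out, and the 4 between the siRNAs became 7 with array weights, 7 without the 2 outlying arrays (s18790 replicate 2 and control replicate 4) and 3 to 5 with 1 array left out. With the replicate block the counts were 7 for s18790 against control, 0 for s18789 against control and 4 between the siRNAs. The labels do not say whether the numbers pair the samples, and the correlations cannot settle it. Correlations of deviations between same-numbered arrays were -0.328 to 0.155, -0.485 to 0.206, 0.371 to 0.575 and -0.583 to 0.413 for numbers 1 to 4. Of 12 arrays, 3 correlated best with their own number. The count for s18789 against control was 0 under all 23. Uncalled differences from control changed sign in 6 cases. With s18789 these were H2BC12 ILMN_1796179 (-0.04; 0.0666 with median scaling; -0.111 to 0.0289 with 1 array left out), H2BC12 ILMN_1813314 (-0.02; 0.0421 with median scaling, 0.0302 with array weights, 0.123 without the 2 outlying arrays; -0.215 to 0.123), H2AC18 ILMN_1659047 (0.0982; -0.0115 to 0.188), H4C3 (0.00331; -0.0115 to 0.0247) and H2BC18 (0.07; -0.10 with array weights, -0.10 without the 2 outlying arrays; -0.10 to 0.14). With s18790 it was NPAT (-0.08; 0.00586 without the 2 outlying arrays; -0.37 to 0.20). The cause was not tested. Over all probes, the 1325 called for s18790 against control became 809 with median scaling, 430 with only the groups compared, 834 with the block, 3117 with array weights, 2795 without the 2 outlying arrays and 583 to 1793 with 1 array left out. For s18789 against control 15 became 3 to 385, and between the siRNAs 668 became 200 to 1644. Median scaling moved the median of all probes between the siRNAs to -0.14. H2BC4, H2BC11 and H2BC5 ILMN_1777405 are limited by signal over background.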
